A study of Mus musculus with 22 samples.

Results

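The 38 genes described here are the endothelial and vascular genes measured in a study of mouse lung tumour cells and normal lung: the receptors, junction proteins, surface proteins, secreted factors and transcription factors of the cells that line blood and lymphatic vessels. They were chosen by name, and each was read from a single Affymetrix probe set, its brightest on average across the 22 arrays, with cross-hybridizing sets passed over where the gene had another. All 38 were on the array, among 18193 genes represented in that way. The sorted cells came from A2C12, a cell line from a lung tumour that arose in a C57BL/6 mouse carrying both c-myc and c-raf as transgenes, and they were the side population, the fraction that pumps out the DNA dye Hoechst. There were 3 arrays of untreated cells and 3 of cells given a monoclonal anti-mouse EpCAM antibody at 100 µg/ml for 48 h before the sort. EpCAM is a surface protein of epithelial cells. Lung tissue of non-transgenic C57BL/6 mice was measured on 16 arrays, 8 labelled male and 8 labelled female, and the labels give no age. Both cell groups are preparations of 1 line, carry the same transgenes and passed the same sort, whereas the lungs are whole tissue with no sort and no culture.

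Blood vessels are lined by endothelial cells, and lung is among the tissues richest in them because each air space is wrapped in capillaries. Endothelial growth and quiescence are set by VEGF acting on its receptor kinases and by angiopoietins acting on the receptor encoded by Tek. Bone morphogenetic proteins act in the same cells through a complex of Acvrl1, Eng and Bmpr2, and ETS family factors such as Erg and Fli1 act on many endothelial promoters through DNA words with the core GGAA. Cells outside the vessel wall do not carry this program as a whole, although single members, among them Bmpr2, Thbd and Vcam1, are known from many other cell types.

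Promoter sequences are shown because all but a pair of these genes moved together between cells and lung, and because an ETS core is the DNA word most associated with the program. RefSeq promoter windows of build GRCm38.p6 were matched by symbol for 18 of the 38 genes, and the 250 bases before each start were read 5′ to 3′ on the gene's strand. The windows printed are 1 receptor kinase (Tie1, chr4:118489850-118490099, minus strand), 2 receptors of the bone morphogenetic protein complex (Eng, chr2:32646345-32646594, and Bmpr2, chr1:59764029-59764278, both plus strand), 1 secreted factor (Egfl7, chr2:26580833-26581082, plus strand) and 1 junction protein (Cldn5, chr16:18776597-18776846, plus strand). Capitals mark every copy of GGAA on either strand, so that TTCC is the same word read on the other strand.
Tie1: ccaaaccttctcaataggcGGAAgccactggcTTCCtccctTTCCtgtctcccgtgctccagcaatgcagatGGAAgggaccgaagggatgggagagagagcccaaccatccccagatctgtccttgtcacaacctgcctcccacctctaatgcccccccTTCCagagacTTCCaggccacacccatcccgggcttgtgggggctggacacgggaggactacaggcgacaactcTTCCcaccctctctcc
Eng: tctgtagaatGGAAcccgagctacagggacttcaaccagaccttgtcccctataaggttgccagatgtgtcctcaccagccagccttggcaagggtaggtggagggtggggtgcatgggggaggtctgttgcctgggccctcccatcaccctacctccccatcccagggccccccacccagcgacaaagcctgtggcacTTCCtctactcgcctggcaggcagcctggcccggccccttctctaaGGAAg
Bmpr2: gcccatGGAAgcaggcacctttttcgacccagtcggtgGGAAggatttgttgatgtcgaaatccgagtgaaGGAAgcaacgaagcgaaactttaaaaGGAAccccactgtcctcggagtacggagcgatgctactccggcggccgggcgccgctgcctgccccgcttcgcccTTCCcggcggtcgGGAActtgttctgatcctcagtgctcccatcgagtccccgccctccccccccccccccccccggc
Egfl7: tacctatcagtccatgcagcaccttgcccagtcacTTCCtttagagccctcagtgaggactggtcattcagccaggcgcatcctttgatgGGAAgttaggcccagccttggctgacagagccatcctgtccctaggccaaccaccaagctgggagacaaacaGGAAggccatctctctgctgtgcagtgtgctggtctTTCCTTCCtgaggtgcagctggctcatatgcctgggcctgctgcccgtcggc
Cldn5: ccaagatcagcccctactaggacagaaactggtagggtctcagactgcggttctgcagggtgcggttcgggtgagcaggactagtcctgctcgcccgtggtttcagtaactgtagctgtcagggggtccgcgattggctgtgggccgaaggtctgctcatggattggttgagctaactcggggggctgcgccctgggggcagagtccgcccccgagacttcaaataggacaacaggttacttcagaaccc
There were 7 copies of the core in the Tie1 window, 3 in Eng, 6 in Bmpr2, 5 in Egfl7 and 0 in Cldn5. The core is too short to set these genes apart: GGAA on either strand was in 91.3% of the 23 windows of the 18 genes and in 93.4% of all 32851 RefSeq windows of the same length. The longer word AGGAAG, which contains the core, was in 11 of the 23 windows (47.8%) against 29.5% of all windows, and GGAAGT was in 26.1% against 19.7%. These are counts of letters, given as a description with no test, and several windows belong to the same gene. Among the genes printed, Cldn5 with no copy and Tie1 with 7 were both near background in the cells and high in lung, as the values below give.

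The deposited values are PLIER intensities on a linear scale, which are compared here for each gene between arrays. Sums over a list of genes are likewise compared between arrays. The intensity of 1 gene is not a measure of its RNA against that of another gene. An intensity under the 40th percentile of its array was treated as near background. That percentile ranged from 24.6 to 25.8 for cells and from 30.1 to 33.7 for lung. In lung, 37 of the 38 genes were above it on all 16 arrays, and Prox1 was above it on 1. In the cells, 8 genes were above it on all 6 arrays (Ptprb, Acvrl1, Eng, Bmpr2, Vcam1, Thbd, Nos3 and Plvap), 8 on some arrays and 22 on none. The arrays labelled male 3 and male 4 went against their sex label, with Xist at 1512 and 1583 against 12.7 to 24.0 on the other 6 male arrays, and Uty at 8.27 and 9.46 against 722 to 1253. They also stood apart for the vascular genes, and the lung results are given with and without them. Lung epithelium was present on the lung arrays, where Sftpc, the surfactant protein C gene, read 9934 to 11940. In the cells all 13 alveolar and airway epithelium markers were called lower than in lung. Of all genes tested, 23.8% were called lower in untreated and 23.9% in antibody-treated cells. Still, 8 of the 13 were above the 40th percentile on at least 3 cell arrays.

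**Figure D1:**
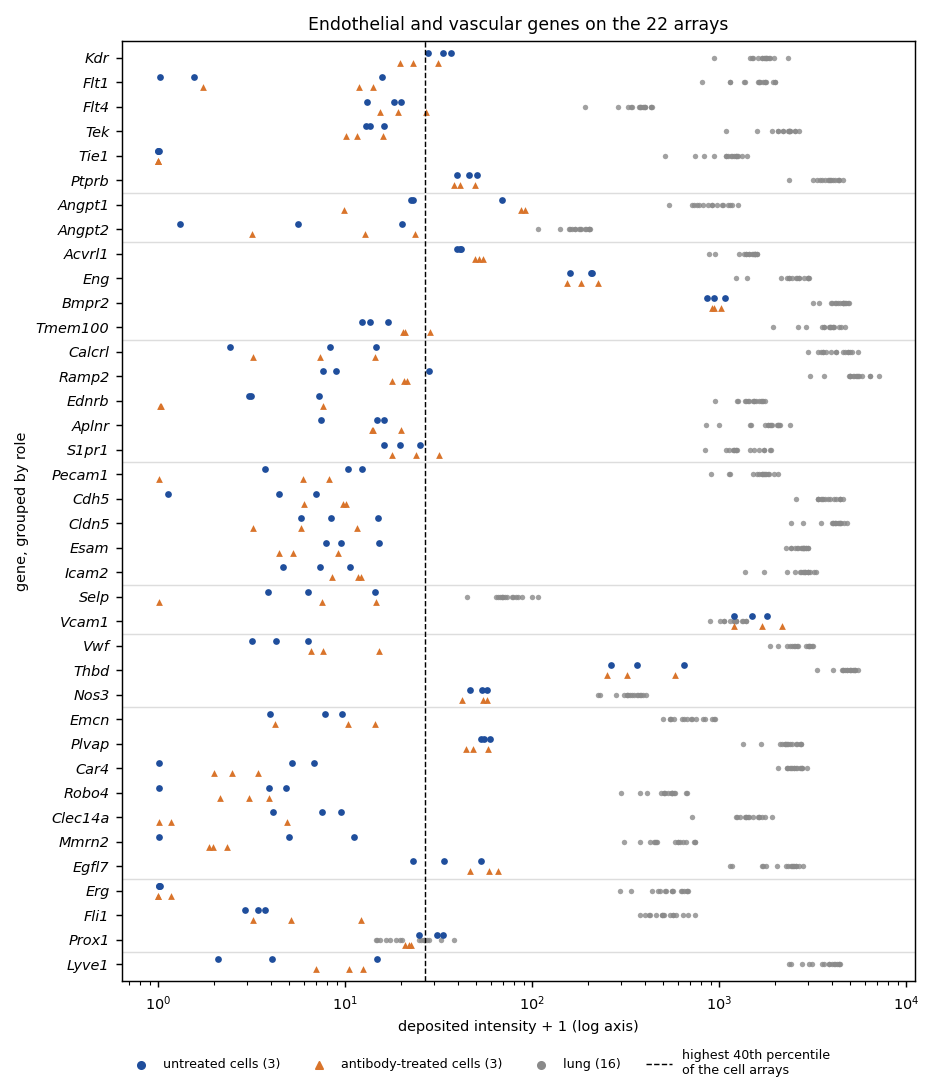
Intensity (plus 1, on a log axis) of the 38 endothelial and vascular genes on each of the 22 arrays, with blue circles for untreated cells, orange triangles for antibody-treated cells, grey points for lung and a dashed line at 25.8, the highest 40th percentile of a cell array. For 36 genes all 6 cell points lie to the left of all 16 lung points; Vcam1 and Prox1 are the exceptions.

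The first comparison asks how the sorted tumour cells differ from normal lung. Endothelial and vascular genes were lower in the cells almost without exception: 36 of 38 passed the test as lower in untreated cells, and the same 36 in antibody-treated cells, with 0 higher in either. For 36 genes all 6 cell arrays lay below all 16 lung arrays, which was the case for 30.3% of all genes. The test was limma's on log2(intensity + 16), and a gene was called at a Benjamini-Hochberg adjusted p under 0.05 with at least a 2-fold difference. Among all genes tested, 23.8% were called lower and 17.8% higher in untreated cells, and 23.9% and 17.2% in antibody-treated cells. Because 25 of the genes for untreated and 23 for antibody-treated cells entered the test through their lung levels alone, the counts were also taken over all 38 with no filter, where they were again 36 lower and 0 higher, against a background of 20% lower in both comparisons. The median log2 difference over the 38 was -5.20 in untreated and -5.16 in antibody-treated cells, beside 0.07 and 0.05 over all genes. The 2 comparisons share the 16 lung arrays. In bulk tissue, fewer cells of a type and less RNA per cell cannot be told apart.

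**Figure D2:**
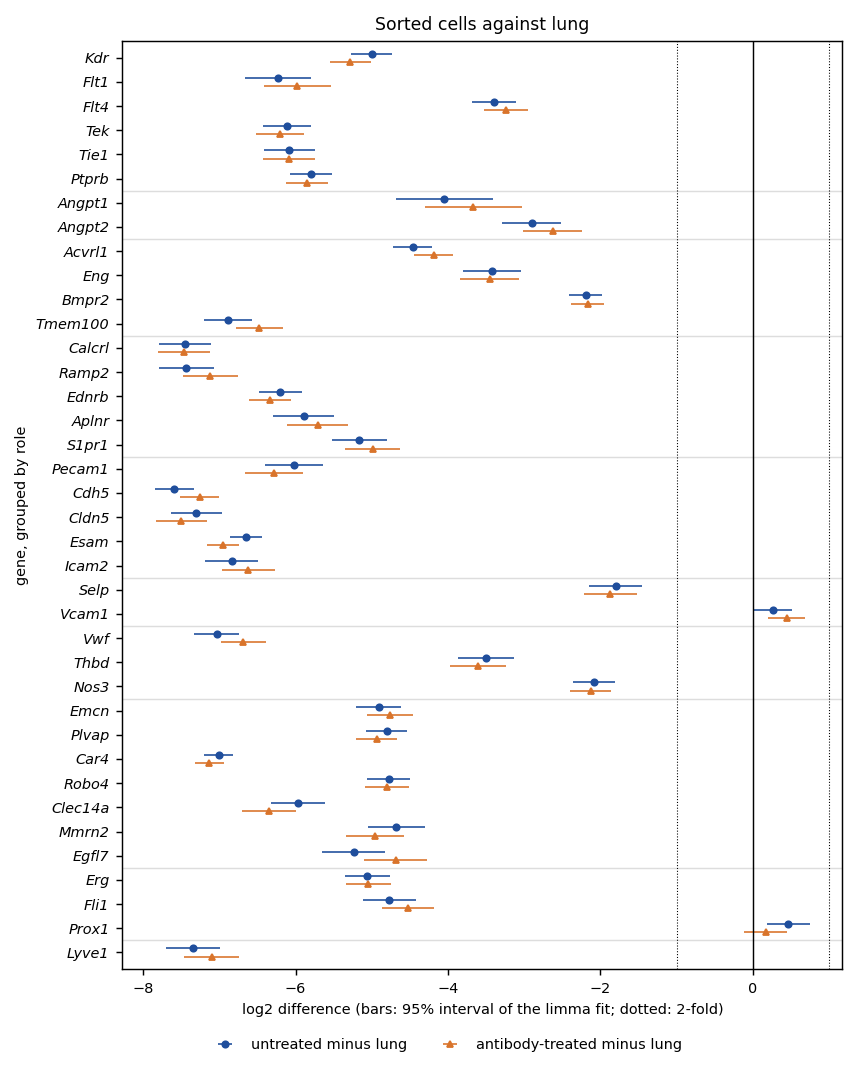
Log2 difference from lung (x axis) for each of the 38 genes in untreated cells (blue circles) and antibody-treated cells (orange triangles), with 95% intervals of the limma fit and dotted lines at 2-fold. The differences run from -7.59 for Cdh5 in untreated cells to values near 0 for Vcam1 and Prox1, and the markers of both cell groups lie close together for each gene.

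Among the VEGF and angiopoietin receptors, all 6 genes fell. Kdr encodes the main signalling receptor for VEGF; its intensities were 35.7, 32.5 and 26.7 in untreated cells and 18.7, 30.5 and 22 in antibody-treated cells, while lung ran from 943 through a median of 1748 to 2324. Of the 6 cell arrays 4 were slightly above their 40th percentile and 2 below it, and every lung array was far above. The log2 difference was -5.00 ± 0.13 (SE) in untreated cells (limma, adjusted p = 1.51e-20) and -5.28 ± 0.13 in antibody-treated cells. Flt1, a VEGF receptor that also acts as a decoy, read 14.8, 0.563 and 0.0181 in untreated cells against 808 to 1992 in lung, and differed by -6.23 ± 0.21. Flt4, the receptor for VEGF-C on lymphatic vessels, had a lung median of 380 and fell by 3.40 on the log2 scale in untreated cells. Tek, the angiopoietin receptor, read 15.2, 11.9 and 12.6 in untreated cells and 10.6, 15 and 9.08 in antibody-treated cells against a lung range of 1083 to 2662. Its relative Tie1 was listed at 0.0109 or less on all 6 cell arrays and at 510 to 1406 in lung. Their log2 differences in untreated cells were -6.11 ± 0.16 and -6.08 ± 0.16. Ptprb, the phosphatase that restrains Tek, stayed slightly above background on the 6 cell arrays, at 37.4 to 49.5, and was still far under lung (2368 to 4594; -5.79 ± 0.14).

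Both ligands of Tek fell. Angpt1, which activates the receptor and is made mostly by cells around vessels, read 67.7, 21.6 and 22.2 in untreated cells and 86, 90.1 and 8.88 in antibody-treated cells. The arrays of each group thus fell on both sides of background, and the groups overlapped fully. All 6 lay below the lowest lung array (539, with a median of 918), and the difference from lung was -4.05 ± 0.31 in untreated and -3.67 ± 0.31 in antibody-treated cells. Angpt2, which competes with it, read 19, 4.57 and 0.302 in untreated cells against 107 to 204 in lung and fell by 2.90 on the log2 scale.

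Of the 4 genes of bone morphogenetic protein signalling, 3 were above background on all 6 cell arrays, while of the 6 genes of VEGF and angiopoietin reception 1 was. Bmpr2, the type II receptor, was far above background on every array: 861, 934 and 1076 in untreated cells, 916, 1026 and 934 in antibody-treated cells, and 3190 to 4944 in lung with a median of 4500. The cells held 22.1% of the lung mean in both groups, and no cell array reached the lung range. The log2 difference was -2.19 ± 0.11 in untreated cells (limma, adjusted p = 2.65e-15) and -2.17 ± 0.11 in antibody-treated cells. Eng, the coreceptor, read 204, 207 and 159 in untreated cells and 182, 153 and 225 in antibody-treated cells against 1235 to 3032 in lung, with differences of -3.42 ± 0.19 and -3.45 ± 0.19. Acvrl1, the type I receptor of endothelium, was just above background at 38.7, 40.9 and 40.3 in untreated cells and 53.3, 51.2 and 48.7 in antibody-treated cells, against 876 to 1589 in lung. Tmem100, a target of this signal in endothelium, was at 11.4 to 27.4 over the cell arrays, above the 40th percentile on 1 of them, and its lung range was 1939 to 4682. The log2 differences of Acvrl1 and Tmem100 in untreated cells were -4.47 ± 0.12 and -6.89 ± 0.15.

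The G protein coupled receptors and their partner Ramp2, 5 genes together, all fell, and lung levels were high. Calcrl and Ramp2 together form the adrenomedullin receptor. Calcrl read 1.43, 7.28 and 13.5 in untreated cells and 6.38, 2.23 and 13.4 in antibody-treated cells, against a lung range of 2979 to 5529. Ramp2 read 7.96, 26.9 and 6.58, then 19.6, 20.3 and 16.9, against 3044 to 7139 in lung. The log2 differences in untreated cells were -7.45 ± 0.17 and -7.43 ± 0.18. Ednrb, an endothelin receptor, Aplnr, the apelin receptor, and S1pr1, a sphingosine 1-phosphate receptor that tightens the vessel wall, differed by -6.20 ± 0.14, -5.90 ± 0.20 and -5.17 ± 0.17. S1pr1 reached 30.7 on 1 antibody-treated array and stayed below the 40th percentile on the other 5 cell arrays.

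The genes of endothelial junctions gave the plainest picture. Cdh5 encodes VE-cadherin, the adhesion protein that defines endothelial contacts; its intensities were 3.41, 0.123 and 5.99 in untreated cells and 5.05, 9.08 and 8.77 in antibody-treated cells, against 2583 to 4616 in lung. No cell array was above background and the lung range was narrow by comparison with the gap. The log2 difference was -7.59 ± 0.12 in untreated (limma, adjusted p = 1.51e-24) and -7.26 ± 0.12 in antibody-treated cells. Cldn5, the tight junction claudin of endothelium, read 14, 4.80 and 7.41 in untreated cells against 2407 to 4827 in lung. Pecam1, the platelet and endothelial adhesion molecule CD31, read 11.3, 2.73 and 9.34 against 907 to 2059. Esam and Icam2, adhesion molecules of the immunoglobulin family, were at or under 14.2 on all 6 cell arrays and at 2267 to 2980 and 1374 to 3285 in lung. The 4 differed by -7.30 ± 0.16, -6.02 ± 0.18, -6.65 ± 0.10 and -6.84 ± 0.17 in untreated cells.

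Folds of this size depend on the offset of 16, since the lower values lie under it. For the 22 genes that were near background on all 6 cell arrays, each cell value was therefore also set at no less than the 40th percentile of its array, which gives a lower bound for the fold. Lung was then at least 166-fold higher for Calcrl, at least 150-fold for Cdh5 and at least 159-fold for Cldn5, with a median bound of 62.2 over the 22 genes. The lowest bounds were those of Angpt2, at least 6.85-fold, and Selp, at least 2.92-fold. In the cells only an upper limit was thus measured for these 22 genes, and Selp was also low in lung.

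Both genes of leukocyte capture departed from the rest. Selp, P-selectin, which endothelium stores and brings to its surface on activation, was low in lung itself, at 43.7 to 107 with a median of 71.6, and read 0.0138 to 13.6 in the cells. It was called lower in untreated cells, with a difference of -1.80 ± 0.17 (limma, adjusted p = 5.86e-10), and it no longer reached 2-fold with an offset of 64 (-0.87). Vcam1, the ligand that binds leukocyte integrins, was the exception with a high level: 1793, 1197 and 1503 in untreated cells, 2155, 1697 and 1203 in antibody-treated cells and 889 to 1389 in lung with a median of 1206. In each cell group 2 arrays lay above the lung range and 1 within it. The difference of 0.26 ± 0.12 in untreated cells (limma, adjusted p = 0.0473) and 0.44 ± 0.12 in antibody-treated cells (adjusted p = 0.00184) was under 2-fold and was not called. Both errors come from 1 variance over all groups. The SD of the intensities was 298 in untreated cells, 476 in antibody-treated cells and 138 in lung, so these p-values understate the spread of the cells. The other probe sets of Vcam1 did not give the same size. A second set overlapped with lung, at 179 to 447 over the cell arrays and 162 to 329 in lung. The remaining set read 651, 302 and 240 in untreated cells and 528, 549 and 217 in antibody-treated cells against 43.3 to 99.2 in lung, a difference of 2.21 ± 0.21 in untreated cells (adjusted p = 1.27e-09). The probe sets agree that Vcam1 was not lower in the cells and disagree on how much higher it was.

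Coagulation and vessel tone genes fell by very different amounts. Vwf, the von Willebrand factor that endothelium stores and releases, read 5.29, 2.19 and 3.26 in untreated cells and 6.63, 14.2 and 5.60 in antibody-treated cells against 1862 to 3183 in lung (-7.04 ± 0.14). Thbd, thrombomodulin, which turns thrombin toward anticoagulation and is also made outside endothelium, was retained at 650, 362 and 263 in untreated cells and 319, 582 and 250 in antibody-treated cells. Its lung range was 3354 to 5520, so that the cells held 8.81% and 7.96% of the lung mean, and the difference was -3.50 ± 0.18 and -3.61 ± 0.18. The 3 arrays of each cell group differed among themselves by more than the groups did. Nos3, endothelial nitric oxide synthase, was 45.4, 56.1 and 53.2, then 56.3, 41 and 53.9, against 224 to 405 in lung, a fall of 2.08 on the log2 scale in untreated cells.

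All 7 surface, secreted and capillary genes fell. Car4, a carbonic anhydrase on the surface of lung capillaries, was at 5.81 or less on every cell array and at 2055 to 2953 in lung. Its log2 difference in untreated cells was -7.01 ± 0.09. Plvap, which forms the diaphragms of fenestrae and caveolae, stayed above background at 52, 58.5 and 54 in untreated and 43.4, 47.4 and 56.9 in antibody-treated cells against 1336 to 2741 in lung (-4.81 ± 0.13). Egfl7, a secreted endothelial protein, read 22, 52.1 and 32.6, then 64.6, 58.1 and 45.6, against 1148 to 2798 (-5.24 ± 0.20). The sialomucin gene Emcn, the guidance receptor gene Robo4, the lectin gene Clec14a and the matrix gene Mmrn2 were at 13.4 or less on all 6 cell arrays and differed by -4.91, -4.78, -5.97 and -4.68 in untreated cells.

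The ETS factors Erg and Fli1 were near 0 in the cells. Erg read 0.00499, 0.0102 and 0.0206 in untreated and 0.168, 0.00332 and 0.00377 in antibody-treated cells against 293 to 683 in lung. Fli1 read 2.75, 2.40 and 1.93, then 11.1, 2.21 and 4.13, against 376 to 737. No array of the cells was above background for either gene, and the differences in untreated cells were -5.06 ± 0.14 and -4.77 ± 0.17. Prox1, the lymphatic master regulator, was low everywhere, above the 40th percentile on 2 cell arrays and 1 lung array, at 32.5, 23.9 and 29.9 in untreated cells, 20.9, 21.4 and 19.9 in antibody-treated cells and 13.7 to 37 in lung. Its difference of 0.47 ± 0.14 in untreated cells (limma, adjusted p = 0.00351) was under 2-fold, and it did not pass the intensity filter for antibody-treated cells. Its other probe sets were also dim, at 17.6 to 29.3 and 8.06 to 16.5 in the cells against 7.48 to 20.7 and 6.65 or less in lung. They differed by 0.61 ± 0.12 and 0.67 ± 0.09 in untreated cells and by 0.66 and 0.85 in antibody-treated cells, again under 2-fold. Lyve1, the hyaluronan receptor of lymphatic vessels that some lung macrophages also carry, was high in lung (2356 to 4450) and at 13.7 or less in the cells (-7.35 ± 0.17).

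Different probe sets of the same gene were compared as a second reading. The 38 genes had 74 probe sets, and 23 genes had more than 1. For 21 of the 23 every set had a negative difference in untreated cells, whatever its size, and Vcam1 and Prox1 were the exceptions to the direction. For 12 every set was called lower in a fit of all probe sets with no filter. The like shares over all genes with more than 1 set were not counted. Some sets that were not chosen were dim in lung too, such as the dimmest Bmpr2 set (28 to 54.5 in lung, with a difference of -0.12 ± 0.11).

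Vascular genes outside the 38 were read from 4 further lists. Beside each count below stand the shares over all genes tested in untreated cells, 23.8% called lower and 17.8% higher. Of 24 other endothelial transcripts on the array, 19 were lower and 1 higher in untreated cells, with a list median of -4.69. The largest falls were those of Cd36, a fatty acid scavenger receptor (-7.98 ± 0.10), Cd93 (-7.57), Cyyr1 (-6.96) and Gimap4 (-6.45). Sele, E-selectin, was the 1 higher, at 45.5, 43.6 and 50.3 in untreated cells against 7.29 to 23.9 in lung (1.29 ± 0.14). Of 20 endothelial transcription factors 15 were lower, led by Epas1, the oxygen-responsive factor HIF-2 alpha, which read 48, 53.9 and 71.2 in untreated cells against 6904 to 9371 in lung (-6.63 ± 0.09), then Sox7 (-5.87), Sox18 (-5.14) and Lmo2 (-5.09). Foxc1 was the 1 higher (2.16 ± 0.17). The list median was -3.02.

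Ligands and further receptors were more mixed. Of 18 vascular ligands, 10 were lower and 3 higher, with a median of -1.12, where 23.8% of all genes tested were lower and 17.8% higher. The share of ligands called higher is thus near that of all genes. Bmp6 (-5.96), the endothelin gene Edn1 (-5.37), the platelet-derived growth factor gene Pdgfb (-3.83) and the lymphatic growth factor gene Vegfc (-3.19) fell furthest. The chemokine gene Cxcl12 was higher, at 2597, 5254 and 4875 in untreated cells and 3730, 2473 and 5203 in antibody-treated cells against 640 to 1040 in lung (2.19 ± 0.17; limma, adjusted p = 2.85e-11). The placental growth factor gene Pgf (1.71 ± 0.14) and Gdf2, the ligand BMP9 of the Acvrl1 receptor (1.29 ± 0.15), were the other two. Every cell array was above the lung range for these 3 genes, which were named because they were called higher. The share of all genes with that separation was not counted. Of 17 other vascular receptors and Notch genes on the array, 10 were lower, led by Notch4 (-4.48), Ramp1 (-3.25), Smad6 (-3.13) and S1pr3 (-2.63), and the netrin receptor gene Unc5b was higher (1.83 ± 0.12). The counts in antibody-treated cells were the same for these lists except that 9 ligands were lower.

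**Figure D3:**
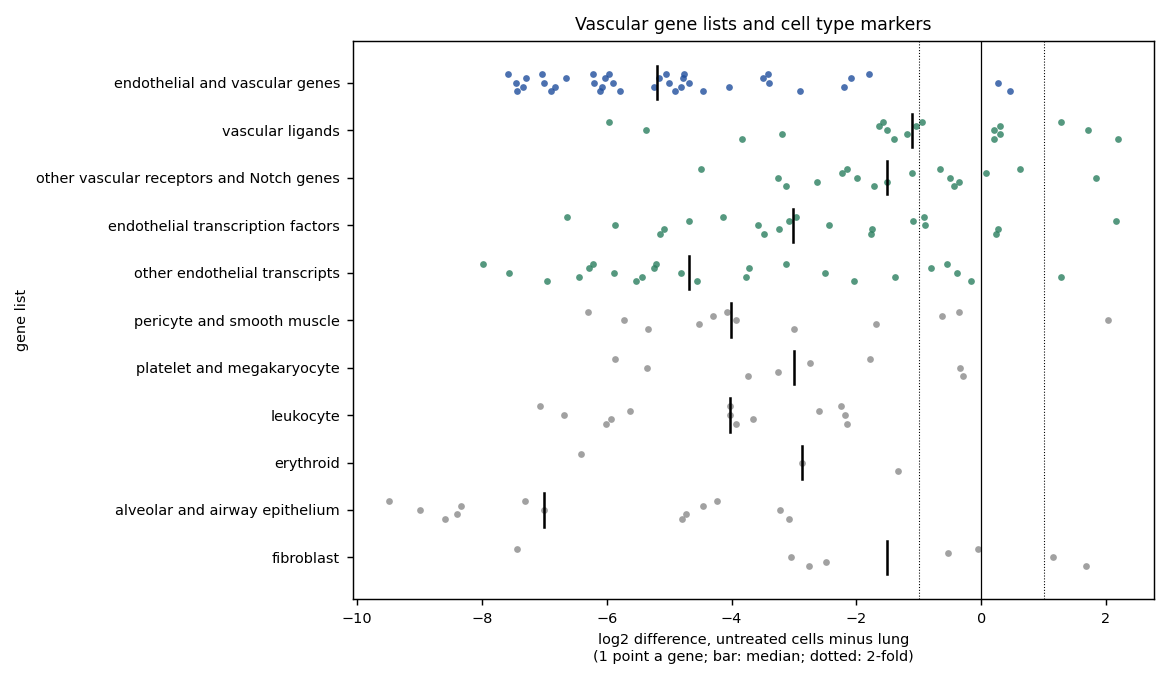
Log2 difference between untreated cells and lung (x axis) for each gene of the 38 endothelial and vascular genes (blue), 4 further vascular lists (green) and 6 marker lists of other lung cell types (grey), with a bar at each list's median and dotted lines at 2-fold. The endothelial and vascular genes and the epithelial markers have medians of -5.20 and -7.01, while ligands, other receptors and fibroblast markers spread to both sides of 0.

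Lung is a mixture of cell types, and markers of most others, though not of fibroblasts, were largely lower in the cells as well. Among all genes tested in untreated cells, 23.8% were called lower and 17.8% higher. All 13 leukocyte markers on the array were lower in untreated cells, with summed intensities at 3.41% to 6.15% of the lung median over the 6 cell arrays, and Ptprc, the leukocyte antigen CD45, was at 1.33 or less. All 13 epithelium markers were lower (sums at 1.37% to 1.71% over both cell groups), as were 3 of 3 erythroid markers on the array (1.02% or less) and 6 of 8 platelet markers (7.80% to 12.3%). Pericyte and smooth muscle markers were lower for 9 of 12, with the muscle myosin gene Myh11 at 5.43 or less, but Rgs5 was higher at 1470, 1493 and 641 in untreated cells against 122 to 408 in lung (2.03 ± 0.27), and the list's sum was at 38.1% to 52.1%. Of 8 fibroblast markers 4 were lower and 2 higher, Fn1 (1.68 ± 0.09) and Col1a1 (1.16 ± 0.18), with sums at 80.3% to 103%. The sum of the 38 vascular genes was at 4.06% to 5.11% of the lung median on untreated and 3.91% to 5.28% on antibody-treated arrays. That sum is weighted toward the genes that are bright in the cells: without Vcam1 and Bmpr2 it was 1.25% to 1.90% over the 6 cell arrays. The part of these other cell types in the difference between cells and lung was not tested.

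The second comparison asks whether the EpCAM antibody changed the vascular genes in the cells. Of the 11 genes that passed the intensity filter on the 6 cell arrays, 0 were called in either direction by limma at an adjusted p under 0.05, and the adjusted p rounded to 1 for each. Over all genes the antibody gave few calls: 0% were higher and 0.0236% lower (3 of 12711), with 94 at an unadjusted p under 0.05, and with no filter 0.011% were lower. With no filter, 19 of the 38 differences were positive and 19 negative, and 4 had an unadjusted p under 0.05. The number of all genes at that p was counted only with the filter. The 95% interval of 34 lay within 2-fold in either direction, as it did for 96.6% of all genes. However, 22 of the 38 genes were near background on all 6 cell arrays, where the added offset narrows the intervals. Tie1, at 0.0109 or less on these arrays, had an interval of -0.19 to 0.18. An interval within 2-fold therefore cannot decide whether the antibody changed such a gene.

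The genes nearest to a difference were small in level. Tmem100 was 12.6, 16 and 11.4 in untreated and 27.4, 19.8 and 19.4 in antibody-treated cells, with a difference of 0.41 ± 0.14 and a 95% interval of 0.09 to 0.74. Acvrl1, given above, differed by 0.28 ± 0.12 and Egfl7 by 0.55 ± 0.23. In the other direction, Clec14a was 8.48, 6.48 and 3.11 in untreated and 3.90, 0.00575 and 0.173 in antibody-treated cells (-0.38 ± 0.15, interval -0.73 to -0.03). Prox1 (-0.30 ± 0.13) and Esam (-0.30 ± 0.16) followed. Acvrl1 and Egfl7 were tested with the filter and all 6 genes without it, and none was called. The arrays of both groups did not overlap for 4 of the 38 genes, Acvrl1, Tmem100, Vwf and Prox1, and this was so for 4.95% of all genes. For the genes with a clear level in the cells, the intervals were -0.27 to 0.33 for Bmpr2, -0.41 to 0.35 for Eng, -0.35 to 0.70 for Vcam1 and -0.92 to 0.71 for Thbd. A change of 2-fold lies outside all 4 of these intervals, and smaller changes lie inside. Angpt1 had the widest interval, from -1.06 to 1.83, and a 2-fold change in either direction lies inside it.

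**Figure D4:**
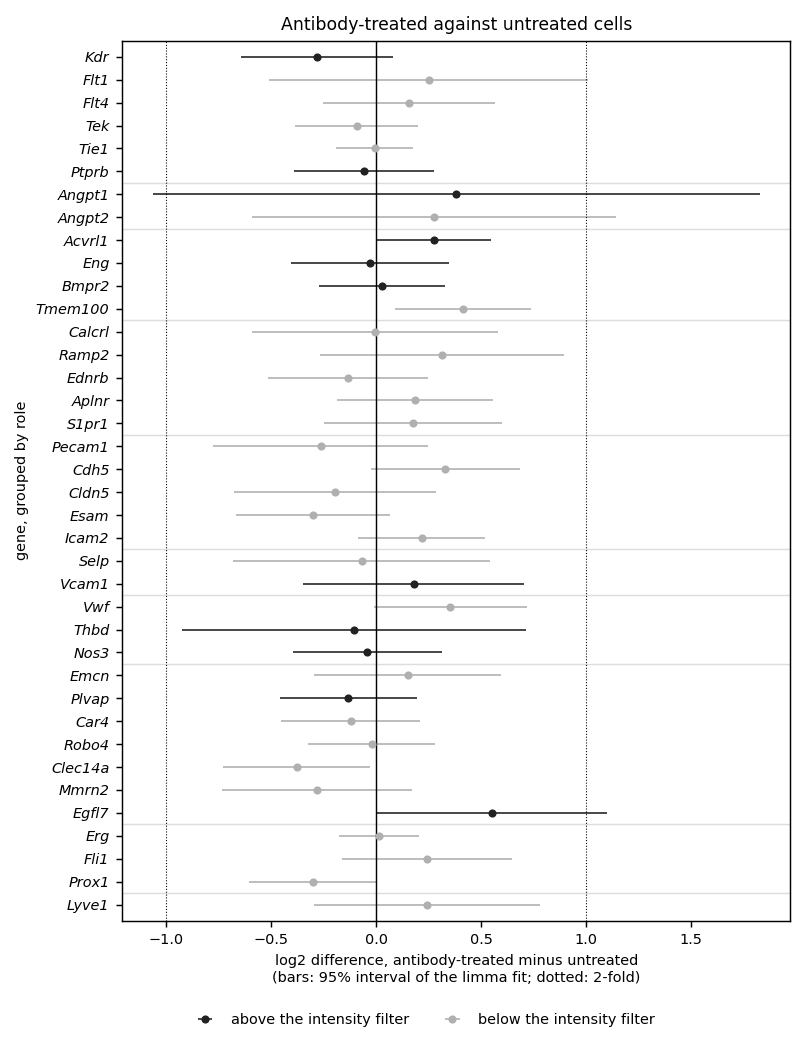
Log2 difference between antibody-treated and untreated cells (x axis) with the 95% interval of the limma fit for each of the 38 genes, in black where the gene passed the intensity filter on the cell arrays and in grey where it did not, with dotted lines at 2-fold. Most intervals cross 0, and those of Flt1, Angpt1, Angpt2 and Egfl7 reach past 2-fold.

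Among the lungs, the vascular genes separated single arrays more than sexes. The array labelled male 4 was the lowest of the 16 for 31 of the 38 genes, whereas it was the lowest for 14.6% of all genes. It lay below the other 14 arrays, with male 3 set aside, for 34 of the 38 (89.5%), and this was the case for 23.8% of the 17103 probe sets with a median above 100. The arrays labelled male 3 and male 4 both lay below the other 14 for 19 genes (50%), against 11.1% of those probe sets. Relative to the median of the other 14 arrays, the median level over the 38 genes was 57.5% on male 4 and 77.4% on male 3, and the medians over those probe sets were 90.2% and 97.0%.

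The deficit was uneven between genes. Tie1 was at 43.0% of the other arrays' median on male 4 and at 62.2% on male 3, Aplnr at 44.4% and 52.2%, Eng at 46.9% and 53.7%, and Egfl7 at 47.1% and 47.8%. Several genes were low on male 4 and nearer the others on male 3, among them Calcrl at 70.6% and 116%, Lyve1 at 59.6% and 92.1% and Bmpr2 at 69.6% and 91.8%. Esam, Vcam1, Emcn and Car4 were the 4 genes for which male 4 lay within the range of the others, and Car4 was at 111% on both arrays.

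**Figure D5:**
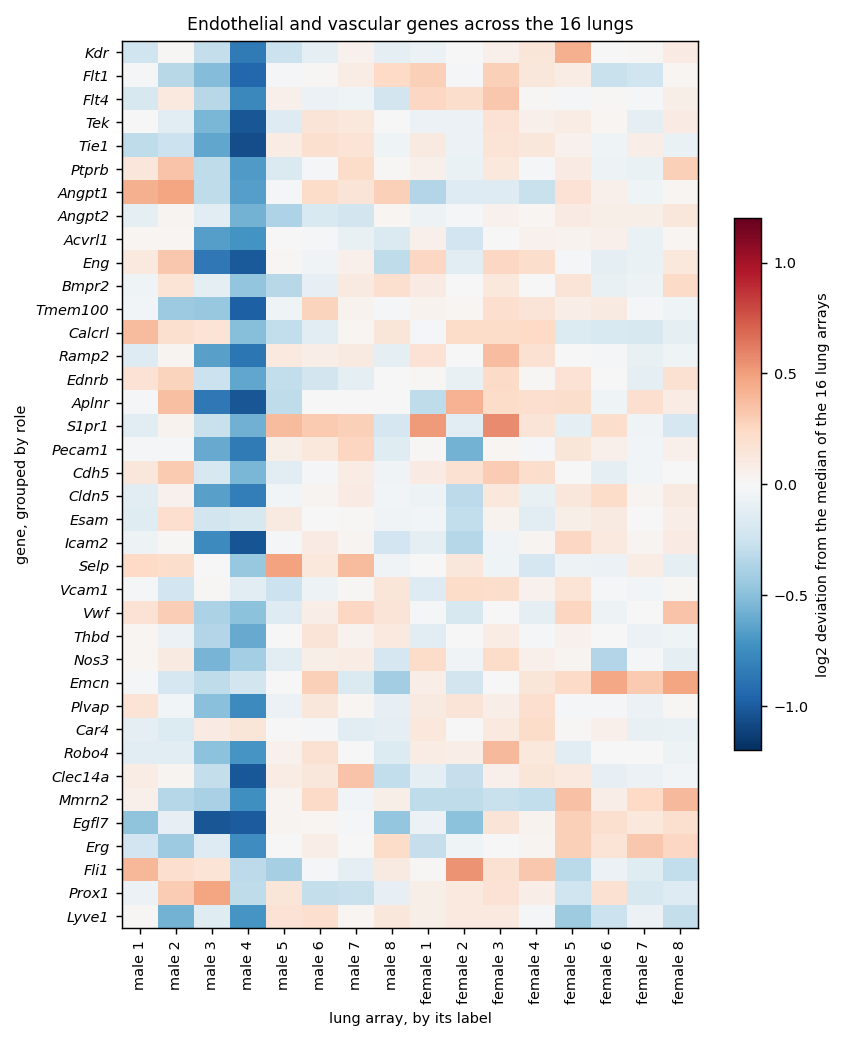
Log2 deviation of each of the 38 genes (rows, grouped by role) on each lung array (columns, by label) from the median of the 16 lung arrays, from blue for lower to red for higher. The column of male 4 is blue for nearly all genes, with a median deviation of -0.71, and that of male 3 for many, with a median of -0.32.

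Markers of other cell types on these arrays did not all move alike. On male 4 the summed intensities were 58.6% of the lung median for pericyte and smooth muscle markers, 67.5% for platelet, 53.8% for erythroid, 87.3% for fibroblast, 92.8% for leukocyte and 112% for epithelium markers, beside 61.7% for the 38 vascular genes. On male 3 they were 70.1%, 68.5%, 114%, 92.4%, 96.6% and 113%, beside 79.2%. The array means of male 3 and male 4, 302 and 288, lay within the range of the other lung arrays, but male 4 had the lowest median (47.9) and the lowest 40th percentile (30.1) of the 16. The part of these values and markers in the low vascular levels was not tested. Without both arrays, 36 genes were again lower in untreated and in antibody-treated cells.

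The third comparison is of female with male lung. By limma 0 of the 37 genes tested were called in either direction, where 0.0208% of all genes tested were called higher and 0.0278% lower in female lung (0.011% each way with no filter). With no filter, 36 of the 38 differences were positive and 8 had an unadjusted p under 0.05. Neither count was taken over all genes with no filter, where the median difference was -0.002. Of the 14392 genes tested with the filter, 1522 had an unadjusted p under 0.05. The quartiles of their differences were -0.08 and 0.09, and the median was 0.001. All these counts include the arrays labelled male 3 and male 4. Emcn, at 632 ± 134 (SD, n = 8) in male and 779 ± 134 in female lung, had the smallest p (0.32 log2, limma adjusted p = 0.282). Kdr was 1541 ± 278 and 1866 ± 202 (0.31, adjusted p = 0.295), and Egfl7 1891 ± 537 and 2444 ± 343 (0.43, adjusted p = 0.340). The male and female ranges overlapped for each of these genes. Without the arrays labelled male 3 and male 4, which went against their label, the male means were 660 ± 146 (SD, n = 6) for Emcn, 1656 ± 138 for Kdr and 2136 ± 340 for Egfl7. The log2 differences were then 0.27, 0.19 and 0.22, with limma adjusted p of 0.389, 0.338 and 0.519. The median difference over the tested genes was 0.18 with all arrays and 0.03 without the arrays labelled male 3 and male 4.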

How the data were processed

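Total RNA of 22 mouse samples was hybridized to Affymetrix arrays. The deposited values are intensities per probe set on a linear scale, summarized with PLIER per the submitters' processing notes; its version, its settings and whether arrays were scaled are not given in the sources used here. Of 45101 probe sets, 64 controls were dropped. Gene names came from the platform table (34945 probe sets with 1 symbol, 932 with several, 9160 not listed). Deposited intensities were transformed to log2(intensity + 16) and quantile normalized over all arrays. Genes above the 40th percentile on at least 3 compared arrays were tested with limma 3.58.1 (R 4.3.3), with a trended variance and Benjamini-Hochberg adjustment, two-sided. Lung, as the average of both sexes, was set against each cell group in 1 fit of the 4 groups; the antibody comparison used the 6 cell arrays and the sex comparison the 16 lung arrays. The method was tested on simulated data. Errors are SE of the fit unless given as SD, whose precision is limited by the number of arrays.

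The 38 genes, the lists and the tests were chosen with earlier results of these data known. From each other list the text names up to 4 called genes with the largest difference and those called in the opposite direction; in the antibody comparison it names the 3 genes with the smallest p in each direction. The promoter words were settled after several ETS-type words had been counted. Listed genes that matched no probe set of 1 gene were not analysed here. The labels call the samples of a group biological replicates without naming cultures, so p-values measure the spread between these samples, and the cells represent 1 line. Against lung, each gene has 1 variance over the 4 groups, and 16 of the 22 arrays behind it are lung. Those p-values therefore do not measure the spread of the cell arrays alone. Alternatives covered normalization, offset, filter, probe set choice, variance model, replicate block, arrays left out and, chosen after the data were seen, the lung number ranges 1 to 4 and 5 to 8.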

Additional observations from a re-analysis of the deposited data

Results flagged for a closer look

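Within the 8 arrays of each lung label, the gap between the most extreme array and the next was compared with the whole range for each of the 38 genes. Of 76 groups examined, 4 held an array that stood apart, and chance gives about 1 in 20. Kdr was 943 on the array labelled male 4, where the next lowest male array was 1454 and the highest 1854; this is the array on which most vascular genes were low. Kdr was 2324 on female 5, above the next highest at 1960. Pecam1 was 1142 on female 2, below the next lowest at 1625, and Egfl7 was 1687 on the same array, below the next at 2279.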

How the results depend on the processing

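The count of genes lower than in lung was 36 in both cell groups without each cell replicate in turn (36 to 36). Over all alternatives it ranged from 32 of 33 tested, with the second probe set, to 36. Genes with a single probe set kept that set in the second probe set alternative, and 23 of the 38 had more than 1. For the others it repeats the main reading. With an offset of 64 the count was 35, Selp falling under 2-fold (-0.87 in untreated and -0.89 in antibody-treated cells). The offset set the size of the differences: the median over the genes tested in untreated cells was -6.94 with an offset of 1 and -4.16 with 64. No normalization and median centring moved the median of all genes to -0.15 and 0.12 from 0.01, and the higher share of calls to 35.2% and 48.5% from 42.8% in untreated cells, and to 34.6% and 47.7% from 41.8% in antibody-treated cells. Counts of higher genes became 2 in untreated (Vcam1 and Prox1) and 1 in antibody-treated cells (Vcam1) when 2-fold was not required, by construction, and 1 in antibody-treated cells with the mean of probe sets (Vcam1, 1.06). In lung arrays numbered 5 to 8, 1 gene was lower in female lung: Lyve1, at -0.40 (limma, adjusted p = 0.0247). It differed by 0.01 with all arrays and by 0.42 (limma, adjusted p = 0.170) in numbers 1 to 4. Numbers 1 to 4 include the arrays labelled male 3 and male 4, which went against their sex label. The sex comparisons in the number ranges are therefore not like for like. The cause of the difference between the ranges was not tested. Calls over all genes between the sexes were 3 higher and 4 lower with all arrays, 15 and 30 without male 3 and male 4, 41 and 38 with array weights, 24 and 15 with the number range as a block, 164 and 57 in numbers 1 to 4, and 93 and 88 in numbers 5 to 8. With the replicate number as a block, 36, 36 and 0 genes were called in the 3 comparisons with cells. Cell arrays of the same number deviated together with r of 0.04, -0.20 and 0.06. The highest r with another number was 0.20, 0.20 and -0.03. With 3 arrays in a group, these values cannot decide whether equal numbers mark paired samples. In the antibody comparison 0 of the 10 or 11 genes tested were called when each replicate was left out (0 to 0); over all genes 0 to 2 were higher and 0 to 3 lower.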

Other observations

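The lungs labelled female 1 to 4 held 3 vascular probe sets above all 12 other lung arrays, a pattern picked out after the values were seen. A second Cdh5 probe set read 103 to 209 on these 4 arrays and 32.2 to 78.0 on the others, a second Flt4 set 146 to 224 against 44.6 to 78.6, and Ramp2 5812 to 7139 against 3044 to 5619. The brighter sets of Cdh5 and Flt4 did not separate these arrays. This was 4.05% of the 74 probe sets of the 38 genes, where 0.833% of all 45037 probe sets lay above the other 12 arrays.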
